A study of Mus musculus with 12 samples.

Results

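The 10 genes described here encode the contractile isoforms of the thin filament that differ between skeletal, cardiac and smooth muscle: the actins Acta1, Acta2 and Actc1, troponin T (Tnnt1, Tnnt2, Tnnt3), troponin I (Tnni1, Tnni2) and troponin C (Tnnc1, Tnnc2). They were taken from a list of gene symbols, with no threshold on measured values. A gene was kept where a transcript cluster, the set of probes that stands for a gene on the array, carried its symbol alone, and all 10 of the 10 listed genes had 1 such cluster among the 19752 genes measured. RNA of whole tibialis anterior (TA) muscle from C57BL/6 mice, 8 weeks old, was read on 12 Affymetrix Mouse Gene 1.0 ST arrays in 4 groups of 3. In every group the muscle had been injured on day 0 with cardiotoxin, a venom protein that kills muscle fibres and sets off their regeneration, and every mouse received diphtheria toxin on alternate days. Mice of the Foxp3-DTR- genotype were given amphiregulin (AREG), a growth factor of the EGF family, or its vehicle phosphate-buffered saline (PBS), and their muscle was taken at day 4. Mice of the Foxp3-DTR+ genotype, in which the toxin removes Foxp3+ regulatory T cells, were given AREG or PBS in the same way, into the muscle on day 0 and then intraperitoneally every second day, and their muscle was taken at day 8. Day and genotype therefore cannot be told apart in any comparison of day 8 with day 4.

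The thin filament is a polymer of actin along which tropomyosin and the troponin complex lie. In the complex, troponin C binds calcium, troponin I holds the filament off when calcium is low, and troponin T ties both to tropomyosin. Adult fast fibres use Acta1 with Tnnt3, Tnni2 and Tnnc2, and adult slow fibres use Acta1 with Tnnt1, Tnni1 and Tnnc1. Actc1 and Tnnt2 are the actin and troponin T of the heart, and both are also made by embryonic and newly regenerating skeletal fibres before the adult isoforms take over. Acta2, the actin of smooth muscle, is made as well by myofibroblasts and, early in their formation, by striated muscle cells.

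Across the 12 arrays the genes fell apart in how far they varied. Tnnt2 spanned 8.44-fold between its lowest and its highest array, Acta2 5.04-fold and Actc1 4.67-fold, and the SD of each over the arrays was above that of 98.4% or more of all genes. Tnni1 spanned 1.76-fold, Tnnt1 1.62-fold, Tnnc1 1.48-fold and Tnni2 1.35-fold. The adult fast isoforms Tnnt3 and Tnnc2 and the adult actin Acta1 spanned 1.24-fold, 1.21-fold and 1.12-fold. Values are normalized array intensities on a linear scale, and only changes of 1 gene between arrays are read from them, since probes of different genes do not share a scale.

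**Figure D1:**
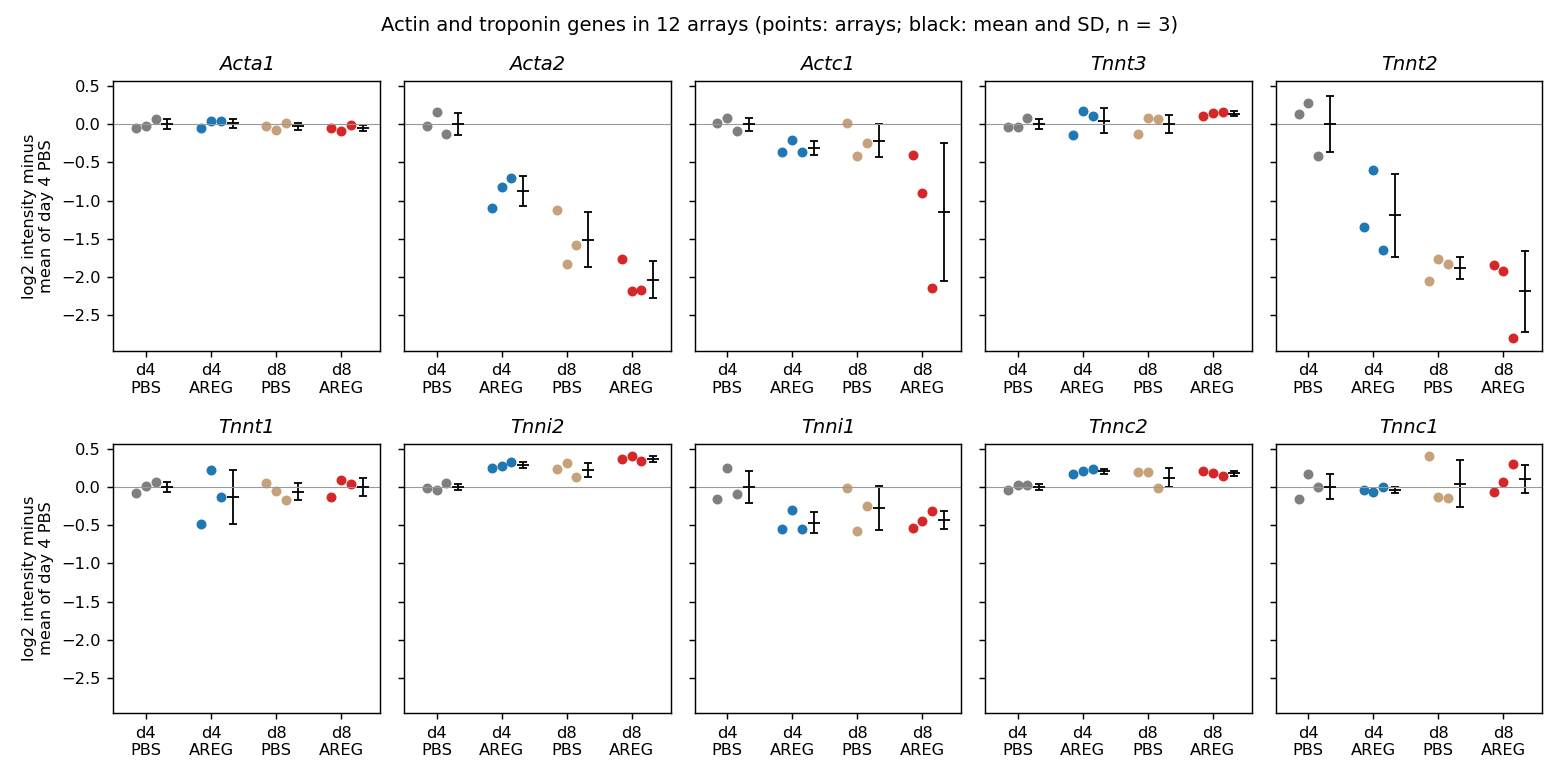
Log2 intensity of each of the 10 actin and troponin genes on each array, relative to the gene's mean in the day 4 PBS group (points are arrays, black bars the mean and SD of 3). Acta2 and Tnnt2 step down from the day 4 PBS group to the other 3 groups, Actc1 is lowest on 1 day 8 AREG array, and Acta1 stays within 0.1 of 0 on every array.

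The 250 bases before the start site of the 3 actin genes and of Tnnt2 are printed from RefSeq (GRCm38.p6), because 2 of these genes changed and the other 2 are the skeletal and cardiac actins to set beside them. Each runs 5′ to 3′ on the gene's strand and ends at the base before the start site. Capitals mark a CArG box or the MCAT element CATTCC, in either orientation. The CArG box, here CCWWWWWWGG with W for A or T, is the site read by serum response factor. The MCAT element is the site read by TEAD factors. Only exact matches were marked and counted. Stretches 1 base off a CArG box stay in small letters. Among them are ccatatacgg in Acta1, ccctatatgg in Acta2 and Actc1, and gcttatatgg in Tnnt2. The Acta1 window is chr8:123894776-123895025 (minus strand), that of Acta2 chr19:34255374-34255623 (minus strand), that of Actc1 chr2:114052876-114053125 (minus strand), and that of the first of 2 Tnnt2 start sites chr1:135836084-135836333 (plus strand).
Acta1: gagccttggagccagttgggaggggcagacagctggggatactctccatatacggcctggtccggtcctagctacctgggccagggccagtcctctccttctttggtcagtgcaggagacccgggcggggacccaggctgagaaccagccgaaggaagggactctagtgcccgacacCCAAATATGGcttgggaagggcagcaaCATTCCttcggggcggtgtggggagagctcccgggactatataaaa
Acta2: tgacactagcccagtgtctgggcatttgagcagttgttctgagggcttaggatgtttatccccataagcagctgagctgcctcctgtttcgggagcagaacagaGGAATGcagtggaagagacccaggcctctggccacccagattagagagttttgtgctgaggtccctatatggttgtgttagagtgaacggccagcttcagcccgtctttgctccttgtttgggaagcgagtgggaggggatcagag
Actc1: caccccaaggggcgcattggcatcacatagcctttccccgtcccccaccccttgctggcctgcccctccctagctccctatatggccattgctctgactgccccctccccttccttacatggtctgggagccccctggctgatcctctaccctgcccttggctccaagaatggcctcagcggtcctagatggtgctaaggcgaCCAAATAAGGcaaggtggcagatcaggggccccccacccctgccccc
Tnnt2: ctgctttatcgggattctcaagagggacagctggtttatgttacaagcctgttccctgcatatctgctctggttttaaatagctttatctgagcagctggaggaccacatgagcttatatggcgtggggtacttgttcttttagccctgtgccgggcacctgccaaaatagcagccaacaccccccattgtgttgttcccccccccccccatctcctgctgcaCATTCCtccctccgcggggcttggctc
The Acta1 window held a CArG box at -73 to -64 and an MCAT element at -46 to -41, counted from the start site. The Actc1 window held a CArG box at -47 to -38 and no MCAT element. The Acta2 window held an MCAT element at -146 to -141, on the opposite strand, and the Tnnt2 window one at -27 to -22. Of the windows not printed, that of Tnnc1 held an MCAT element at -58 to -53. The window of the second Tnnt2 start site held neither a CArG box nor an MCAT element, and nor did those of Tnnt1, Tnni1 and Tnnc2. Both strands were searched, no capital stretch overlaps another, and a match is a description of letters and not of a bound site. Over 32851 promoters of the same length, a CArG box was found in 1.47% and the MCAT element in 12.64%. The E-box CANNTG, the motif of the MyoD family, was counted 2 times in Acta1, 3 in Acta2, 0 in Actc1 and 4 in Tnnt2. The second Tnnt2 window held 1 E-box, and 66.22% of all promoters held at least 1. The MEF2 motif was in none of these 4 windows and in 0.51% of all promoters. Promoters were given for 8 of the 10 genes, and not for Tnnt3 and Tnni2.

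The first comparison asks what AREG did at day 4, 4 days after injury in Foxp3-DTR- mice. Acta2, the smooth muscle actin, fell 1.83-fold and Tnnt2, the cardiac and embryonic troponin T, fell 2.29-fold, and no other of the 10 genes passed the test. Of the 10 genes these 2 were called, both lower, against 2.90% of all genes called in either direction by limma (573 of 19752, adjusted p under 0.05). With the replicate number as a block 914 genes were called, and the same 2 of the 10. The median log2 change was -0.08 over the 10 genes and 0.04 over all genes. The values of the AREG and PBS arrays did not overlap for 6 of the 10, Acta2, Actc1, Tnnt2, Tnni1, Tnni2 and Tnnc2, against 22.3% of all genes. The labels do not say that the arrays come from separate animals, so p-values measure the spread between arrays, which may be technical.

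Among the actins, Acta2 read 1919, 2315 and 2509 in the AREG arrays and 4037, 4562 and 3731 in the PBS arrays at day 4. Every AREG array lay below every PBS array. The log2 change was -0.87 ± 0.17 (SE, n = 3 per group, adjusted p = 0.0242, limma). Actc1 read 8009, 8952 and 8049 with AREG and 10437, 10922 and 9708 with PBS, again without overlap, but its log2 change of -0.31 ± 0.29 did not pass (adjusted p = 0.696). The fit shares 1 estimate of spread over the 4 groups, and for Actc1 the SD on the log2 scale was 0.09 in both day 4 groups and 0.90 in the day 8 AREG group. Acta1, which forms the thin filament of adult skeletal fibres, read 14342 to 15302 with AREG and 14343 to 15620.0 with PBS. The groups lay on top of each other, with a log2 change of 0.01 and a 95% interval of -0.20 to 0.22. Acta1 was near the upper end of what these arrays read, since the brightest gene on an array lay between 17229 and 18108, and whether its probes could have shown a larger value was not tested.

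Of the troponin T genes, Tnnt2 read 1317, 2219 and 1071 with AREG at day 4 and 3686, 4050.0 and 2510.4 with PBS. The highest AREG array lay below the lowest PBS array. The log2 change was -1.19 ± 0.27 (SE, n = 3 per group, adjusted p = 0.0338, limma). Tnnt3, the fast isoform, read 9997 to 12405.5 with AREG and 10718 to 11655 with PBS, and Tnnt1, the slow isoform, 999 to 1623 and 1325 to 1457. For both the AREG arrays spanned the whole PBS range, and the log2 changes were 0.05 ± 0.11 and -0.13 ± 0.15.

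Troponin I and troponin C gave smaller differences, none of which passed. Tnni1, the slow troponin I, read 1621, 1922 and 1625 with AREG and 2136, 2809 and 2231 with PBS, a log2 change of -0.47 ± 0.15 (adjusted p = 0.108). Tnni2, the fast troponin I, read 7532, 7680.2 and 7954 with AREG and 6284.5, 6195 and 6561 with PBS, a log2 change of 0.28 ± 0.10 (adjusted p = 0.140). Neither gene's groups overlapped, and the slow and the fast isoform had opposite signs. Tnnc2, the fast troponin C, read 9978 to 10404 with AREG and 8587 to 9019 with PBS (log2 change 0.20 ± 0.10, adjusted p = 0.336). Tnnc1, shared by slow fibres and the heart, read 1480 to 1554 with AREG, inside its PBS range of 1393 to 1745 (-0.04 ± 0.15).

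Both calls at day 4 rested on single arrays. Without AREG replicate 1 the adjusted p was 0.0765 for Acta2 and 0.103 for Tnnt2, and without AREG replicate 3 it was 0.0756 and 0.141. Without PBS replicate 1 it was 0.0510 and 0.0930, and without PBS replicate 2 it was 0.170 and 0.214. The log2 change kept its sign in each of these fits, at -0.96 to -0.77 for Acta2 and -1.49 to -0.97 for Tnnt2 over all 12 arrays left out in turn. The count over all genes was 15 without AREG replicate 1, 9 without AREG replicate 3, 228 without PBS replicate 1 and 9 without PBS replicate 2. With array quality weights 5 of the 10 genes were called, Tnni1, Tnni2 and Tnnc2 in addition, beside 26.9% of all genes.

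**Figure D2:**
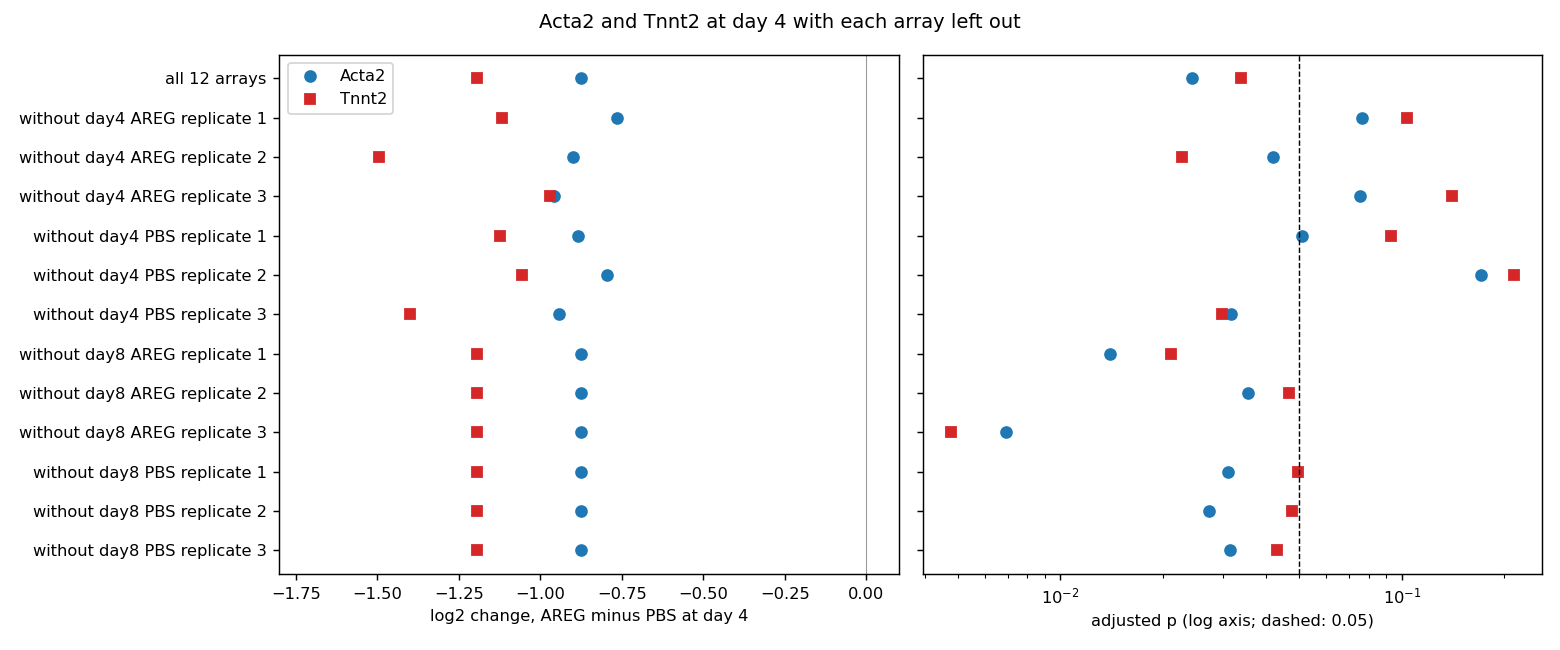
Log2 change of Acta2 and Tnnt2 between AREG and PBS at day 4 (left) and its adjusted p on a log axis (right), with all arrays and with each of the 12 arrays left out. The change lies between -1.49 and -0.77 in each fit, and the adjusted p passes to the right of 0.05 for both genes when AREG replicate 1 or 3 or PBS replicate 1 or 2 of day 4 is left out.

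At day 8, in Foxp3-DTR+ mice, none of the 10 genes was called for AREG against PBS, beside 0.00506% of all genes (1 of 19752) by limma at an adjusted p under 0.05. At an unadjusted p under 0.05 there were 2 of the 10, Acta2 and Actc1, and 1506 of all genes. The medians were 0.02 over the 10 and 0.01 over all genes. With array weights, which gave 1 AREG array a weight of 7.43 and another 0.321, Acta2 and Actc1 were called, beside 6.03% of all genes (1192).

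Actc1 read 7805, 5567 and 2338 in the AREG arrays at day 8 and 10442, 7766 and 8708 in the PBS arrays. AREG replicate 3 was the lowest of the 12 arrays, and AREG replicate 1 lay above the lowest PBS array. The log2 change was -0.93 ± 0.29 (adjusted p = 0.599) and -0.43 without AREG replicate 3. Acta2 read 1211, 904 and 914 with AREG and 1887, 1155 and 1370.4 with PBS, overlapping by 1 array (log2 change -0.53 ± 0.17, adjusted p = 0.614, and -0.33 without PBS replicate 1). Tnnt2 read 937, 883 and 480 with AREG and 809, 984 and 946 with PBS. Here too replicate 3 of the AREG group was the lowest of all arrays, the log2 change was -0.31 ± 0.27, and it was 7.8e-05 without that array.

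Of the adult isoforms at day 8, Tnnt3 (11833 to 12373 with AREG, 10051 to 11703 with PBS) and Tnni2 (7994 to 8390 with AREG, 6921.5 to 7882 with PBS) were the 2 genes of the 10 whose groups did not overlap, against 14.2% of all genes. Their log2 changes were 0.13 ± 0.11 and 0.14 ± 0.10. Acta1 had a log2 change of -0.02 with a 95% interval of -0.23 to 0.19. The other genes, Tnnt1, Tnni1, Tnnc1 and Tnnc2, overlapped between the groups, with log2 changes from -0.15 to 0.06.

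Averaged over day 4 and day 8, the AREG effect was called for 2 of the 10 genes, against 3.41% of all genes (673), and with the replicate block for the same number, beside 1104 genes in all. Acta2 fell by 0.70 ± 0.12 on the log2 scale (adjusted p = 0.0155) and Tnnt2 by 0.75 ± 0.19 (adjusted p = 0.0446). Actc1 had a mean change of -0.62 ± 0.21 (adjusted p = 0.109), Tnni1 of -0.31 ± 0.11 (0.122) and Tnni2 of 0.21 ± 0.07 (0.107). For Actc1 the mean change was -0.37 without day 8 AREG replicate 3, and it was called without day 8 AREG replicate 1 (-0.81, adjusted p = 0.0102) and with array weights (-0.55, adjusted p = 0.00272). The call of Acta2 was lost without day 4 AREG replicate 1 (adjusted p = 0.0516) or day 4 PBS replicate 2 (0.0624). That of Tnnt2 held in 7 of 20 alternatives. Of the 12 arrays left out in turn 9 ended it, each array except replicate 2 of day 4 AREG, replicate 3 of day 4 PBS and replicate 1 of day 8 AREG, with adjusted p up to 0.146.

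Whether the AREG effect differed between day 4 and day 8 was tested directly. None of the 10 genes was called, and 0% of all genes were (0 of 19752 by limma, 1160 at an unadjusted p under 0.05). The largest difference was that of Tnnt2, 0.89 ± 0.38 (unadjusted p = 0.0353, adjusted p = 0.819), whose effect was nearer 0 at day 8. Acta2 gave 0.35 ± 0.25, with 0.19 without day 8 PBS replicate 2 and 0.54 without day 8 PBS replicate 1. Actc1 gave -0.62 ± 0.41, with -0.12 without day 8 AREG replicate 3 and -0.99 without day 8 AREG replicate 1. A call at day 4 and none at day 8 is thus not shown to be a difference between them. With array weights the Tnnt2 difference was called, beside 11.3% of all genes (2232).

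**Figure D3:**
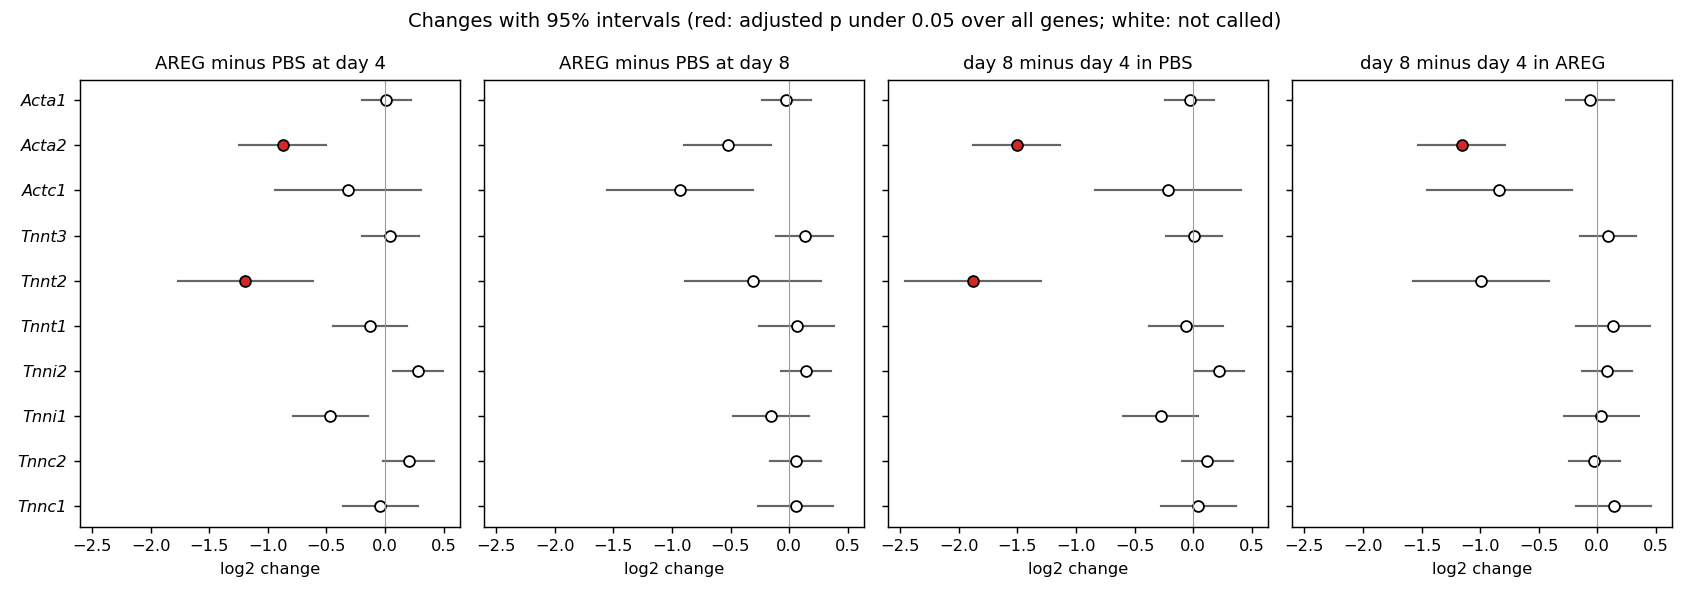
Log2 change of each actin and troponin gene with its 95% interval in 4 comparisons (filled red points passed an adjusted p of 0.05 over all genes, white points did not). Acta2 and Tnnt2 are filled at day 4 and between the PBS groups, Acta2 alone between the AREG groups, and no gene at day 8.

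Between day 4 PBS and day 8 PBS the same 2 genes fell, and by more. Both comparisons use the day 4 PBS arrays, so their values are given side by side and are not independent. Of the 10 genes 2 were called, against 2.34% of all genes (463), and 3 did not overlap, Acta2, Tnnt2 and Tnni2, against 23.4%. Acta2 went from a geometric mean of 4095.8 to 1440.0, a 2.84-fold fall (log2 change -1.51 ± 0.17, adjusted p = 0.000194). Tnnt2 went from 3346.5 to 909.5, a 3.68-fold fall (-1.88 ± 0.27, adjusted p = 0.00125). These 2 calls held in all 21 alternatives, each of the 12 arrays left out among them. Actc1, the other isoform of early fibres, changed by -0.22 ± 0.29 (adjusted p = 0.784) and its groups overlapped. Tnni2 changed by 0.22 ± 0.10 (adjusted p = 0.352), Tnni1 by -0.28 ± 0.15 (0.467), and the remaining 5 by between -0.06 and 0.12.

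Between the AREG groups of day 4 and day 8, 1 of the 10 genes was called, against 0.719% of all genes (142), and 4 did not overlap (Acta2, Actc1, Tnnt2 and Tnni2), against 13.2%. Acta2 fell 2.23-fold, from 2233.7 to 1000.5 (log2 change -1.16 ± 0.17, adjusted p = 0.00368), also in all 21 alternatives. Tnnt2 changed by -0.99 ± 0.27 (adjusted p = 0.145). Actc1 changed by -0.84 ± 0.29 (adjusted p = 0.292), which became -0.34 without day 8 AREG replicate 3, while without day 8 AREG replicate 1 it was -1.21 and called (adjusted p = 0.0489). The adult isoforms Acta1, Tnnt3, Tnni2 and Tnnc2 changed by between -0.06 and 0.09.

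In order of mean level, Acta2 ran from day 4 PBS through day 4 AREG and day 8 PBS to day 8 AREG, with geometric means of 4095.8, 2233.7, 1440.0 and 1000.5. The lowest day 4 AREG array (1919) lay above the highest day 8 PBS array (1887), and the day 8 groups overlapped. Tnnt2 had the same order, with geometric means of 3346.5, 1463, 909.5 and 735. Its day 4 AREG arrays all lay above its day 8 PBS arrays, and the day 8 groups overlapped. Actc1 had another order, day 4 PBS (10343), day 8 PBS (8905), day 4 AREG (8325.5) and day 8 AREG (4666), in which day 4 AREG lay above day 8 AREG and the other neighbours overlapped.

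Ratios of an early or slow isoform to its adult fast partner on the same array are described with no test, relative to the mean of the day 4 PBS group. How often ratios of other genes lack overlap was not counted, so no background share stands beside them. At day 8 Tnnt2 and Actc1 on their own overlapped between AREG and PBS. Since Tnnt3 and Acta1 themselves had day 4 changes of 0.05 ± 0.11 and 0.01 ± 0.10, the ratios over them mostly repeat the values of Tnnt2 and Actc1, and the limit on the upper range of Acta1 holds for its ratio too. The log2 ratio of Tnnt2 to Tnnt3 differed by -1.24 between AREG and PBS at day 4, by -0.44 at day 8, and by -1.88 between day 8 and day 4 with PBS, with no overlap in any of the 3. On the day 8 PBS arrays this ratio was tight, between -1.91 and -1.85, whereas the day 8 AREG arrays ran from -2.97 to -1.94. Without day 8 AREG replicate 3 the day 8 difference was -0.12. The ratio of Actc1 to Acta1 differed by -0.32 at day 4 and -0.91 at day 8 between AREG and PBS without overlap. At day 8 the gap between the groups was narrow, with the highest AREG array at -0.35 and the lowest PBS array at -0.33, and without AREG replicate 3 the difference was -0.39. The ratio of slow Tnni1 to fast Tnni2 differed by -0.75 at day 4 without overlap and by -0.30 at day 8 with overlap. For Tnnc1 to Tnnc2 the day 4 difference was -0.24 without overlap, and for Tnnt1 to Tnnt3 it was -0.18 with overlap.

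**Figure D4:**
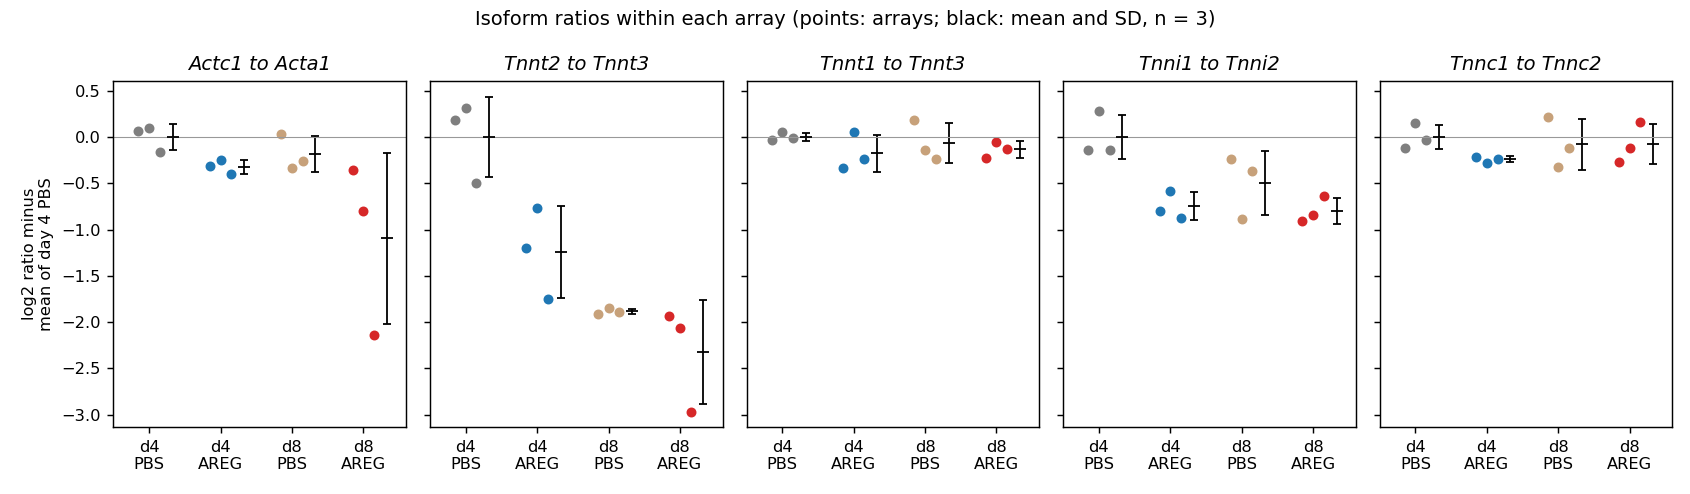
Log2 ratio of each early, cardiac or slow isoform to the adult or fast member of its family on each array, relative to the mean of the day 4 PBS group (points are arrays, bars the mean and SD of 3). The Tnnt2 to Tnnt3 ratio lies on average at -1.24 with AREG at day 4 and at -1.88 with PBS at day 8, while the Tnnt1 to Tnnt3 ratio overlaps in all groups.

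The 10 genes sorted into those that ran together over the arrays and those that did not. Acta2 and Tnnt2 had a Pearson r of 0.895 over the 12 arrays, but only 0.137 once each array was set against its group mean. Actc1 and Tnnt2 had 0.679 and kept 0.647 within groups, where both were lowest on day 8 AREG replicate 3. Fast troponins Tnni2 and Tnnc2 had 0.882 and, within groups, 0.818. Tnni2 had negative r with Acta2 (-0.823), Tnnt2 (-0.795) and Tnni1 (-0.782). The slow pair Tnni1 and Tnnc1 had 0.442 over the arrays and 0.760 within groups. These are descriptions over 12 arrays that share their normalization and group structure.

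**Figure D5:**
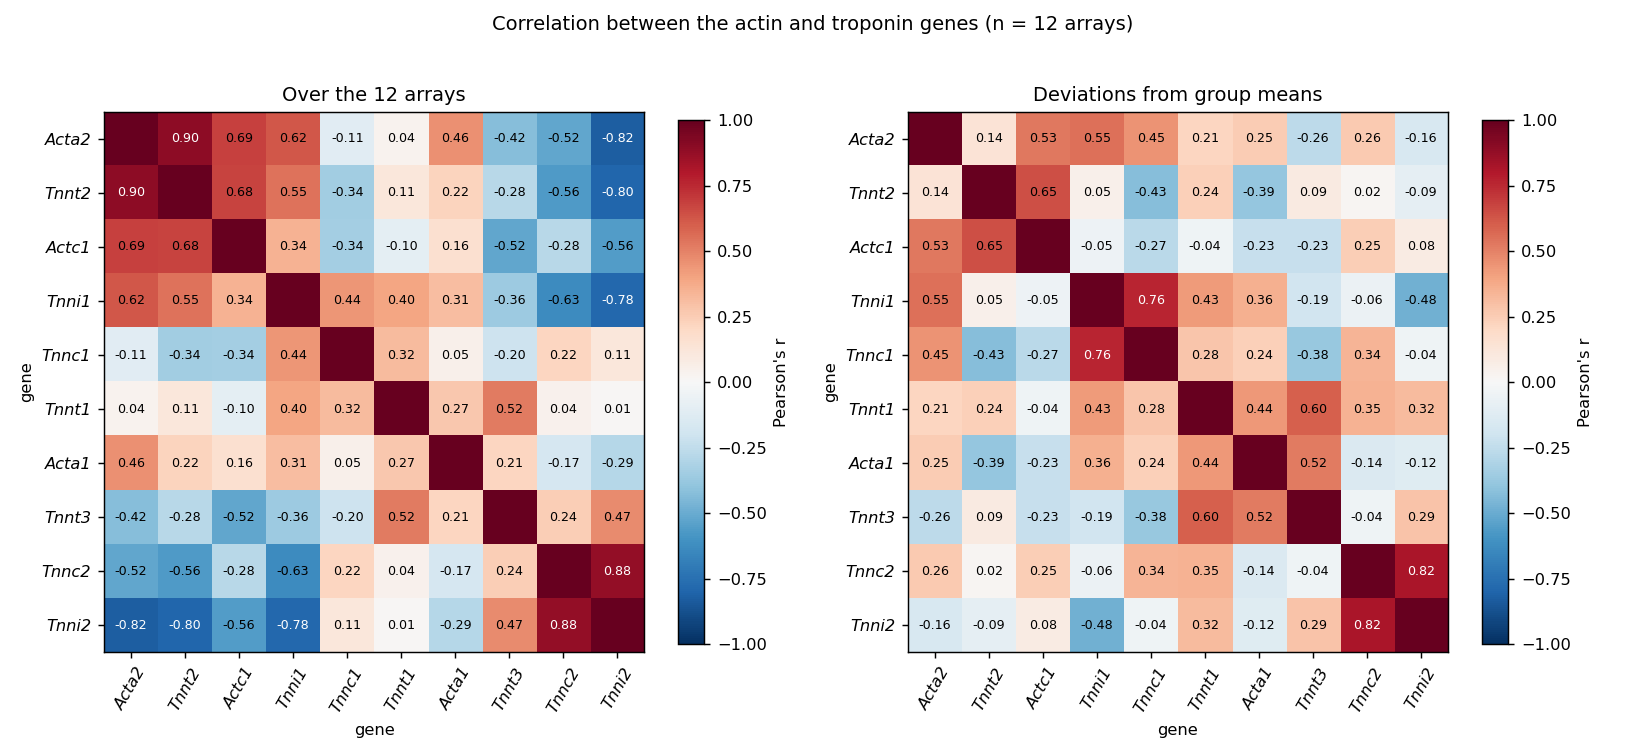
Pearson r between the actin and troponin genes over the 12 arrays (left) and over the deviations from group means (right), with colour from blue (-1) to red (1). Acta2 and Tnnt2 have 0.90 on the left and 0.14 on the right, and Tnni2 and Tnnc2 have 0.88 and 0.82.

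Over all genes, those most like Acta2 across the 12 arrays were Mymk (r = 0.973), the fusion protein of myoblasts, Cyb5r3 (0.973) and the asparagine synthetase gene Asns (0.966). Most like Tnnt2 were Myzap (0.982), the tubulin gene Tubb2b (0.980) and the kinase Dclk1 (0.978). Actc1 was most like the collagen VI chains Col6a2 (0.975) and Col6a1 (0.973) and the collagen receptor Ddr2 (0.967). For Tnni2 they were Thap12 (0.987), Mlxipl (0.956) and Cdk16 (0.955), and for Tnnc2 Nfia (0.954), Nfic (0.933) and Agpat1 (0.930). Tnnt3 was most like Ybx1 (0.944), Snora75 (0.909) and Pum2 (0.878), and Tnni1 most like Fbxl6 (0.917), Ncapd2 (0.901) and Galc (0.895). The leading values were 0.928, 0.924 and 0.900 for Acta1 (Slc9a7, Castor1, Tubgcp3), 0.884, 0.882 and 0.877 for Tnnt1 (Top1, Cops7b, Ano10), and 0.839, 0.839 and 0.834 for Tnnc1 (Nol6, Cherp, Smn1). Each of these genes was picked as the highest over all genes on 12 arrays that share a group structure. Their r within groups was not computed, and no test was made.

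The proteins that bind these isoforms along the filament did not pass in any comparison. Of 19 thin filament partners (tropomyosins, nebulin, tropomodulins, leiomodins, capping proteins and others), 0 were called in each of the 6 comparisons by limma, and 1 to 5 had an unadjusted p under 0.05. At day 4 with AREG 16 of the 19 had a positive change, with a median of 0.14 against 0.04 over all genes. The smallest p was that of Tpm3, the slow tropomyosin, at 0.62 ± 0.19 (unadjusted p = 0.00608, adjusted p = 0.0993), followed by Kbtbd13 (0.46 ± 0.15), the capping protein Tmod4 (0.34 ± 0.12) and Capza2 (0.34 ± 0.12). At day 8 with AREG the median was -0.03, and the smallest p was that of Xirp1 (0.46 ± 0.18, adjusted p = 0.640). The paralogs outside the 10 were 3 of 4 measured, Actb, Actg2 and Tnni3, and 0 were called by limma (at most 1 per comparison at an unadjusted p under 0.05). Cytoplasmic Actb changed by -0.39 ± 0.13 at day 4 (adjusted p = 0.117), and Actg2 and the cardiac troponin I gene Tnni3 read at most 101 and 147 on any array. Cross-hybridisation between the actin genes, whose coding sequences are nearly identical, was not tested here.

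Of 16 regulators known to act on actin and troponin genes 15 were measured. With AREG at day 4, 3 were called, all lower, beside 2.90% of all genes. Of the 15, 10 had a positive change and 5 a negative one, with a median of 0.10 against 0.04 over all genes. Myog, the myogenic factor of differentiation, fell by 1.10 ± 0.21 on the log2 scale (adjusted p = 0.0198), Tead4, which binds MCAT elements, by 0.53 ± 0.12 (0.0314), and Vgll3, a cofactor of TEAD proteins, by 0.58 ± 0.13 (0.0334). Sox6, a repressor of slow fibre genes, changed by 0.47 ± 0.14 (adjusted p = 0.0769). At day 8 with AREG 0 were called by limma and 0 had an unadjusted p under 0.05, with Mef2d at 0.21 ± 0.12 and Myog at -0.35 ± 0.21. The same 3 fell from day 4 to day 8 with PBS: Tead4 by 0.71 ± 0.12, Myog by 1.22 ± 0.21 and Vgll3 by 0.63 ± 0.13. This comparison and that of AREG with PBS at day 4 share the day 4 PBS arrays and are not independent. Between the AREG groups 0 were called and 2 had an unadjusted p under 0.05.

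Markers of other cells and fibre states moved beside these genes. In whole muscle, fewer cells of a type and less RNA per cell cannot be told apart. Of all genes 2.90% were called at day 4, 2.34% between the PBS groups and 0.719% between the AREG groups. The day 4 calls of these and the other gene lists were not followed with arrays left out. Over all genes 9 were called at day 4 without AREG replicate 3, and 9 without PBS replicate 2, against 573. The day 4 and the PBS group comparisons share the day 4 PBS arrays and are not independent. Of 10 markers of newly formed fibres 5 fell with AREG at day 4 and all 10 were below 0, with a median of -1.08, with Chrng, Mymk, Ncam1 and Myog at the smallest p. Their summed intensity was 17554 to 26531 with PBS and 9554 to 14333 with AREG at day 4, and 8539 to 9015 with PBS and 4399 to 8200 with AREG at day 8. At day 8 with AREG 0 of the 10 were called (median -0.41, 4 at an unadjusted p under 0.05), and between the PBS groups 7 fell. Of 12 fibroblast and myofibroblast markers 4 fell with AREG at day 4 (median -0.75), and their sum was 28359 to 32947 with PBS and 17126 to 22277 with AREG. At day 8 that sum was 19049 to 22234 with PBS and 11300 to 19786 with AREG, with 0 called and 6 at an unadjusted p under 0.05. Of these 12, 3 fell between the PBS groups and 2 between the AREG groups. Of 10 macrophage markers 7 fell with AREG at day 4 (median -1.10), with sums of 11881 to 15185 and 5358 to 7286, and 0 at day 8 (2 at an unadjusted p under 0.05). Between the PBS groups 0 macrophage markers were called by limma (1 at an unadjusted p under 0.05). The part of each of these in the values of Acta2, Actc1 and Tnnt2 was not tested.

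Smooth muscle and heart, the usual homes of Acta2, Actc1 and Tnnt2, were checked by other markers. Of 14 smooth muscle and pericyte markers 0 were called with AREG at day 4 by limma (3 at an unadjusted p under 0.05), the median was 0.01, and the sum was 5278 to 6159 with AREG against 5014 to 5332 with PBS. The smallest p there were those of Rgs5 (0.51 ± 0.15, adjusted p = 0.0782, limma) and Kcnj8 (0.53 ± 0.16, 0.0905). Myh11, the smooth muscle myosin, changed by 0.52 ± 0.17 (adjusted p = 0.116) and Tagln by -0.29 ± 0.15 (0.342). Of the 14, 8 had a positive change and 6 a negative one. Rgs5 (729 to 1346 over all arrays) and Pdgfrb (793 to 1191) were the brightest and weigh most in the sum. Between the PBS groups 1 fell, Tagln, by 0.62 ± 0.15 (adjusted p = 0.0366), and the sum at day 8 was 4433 to 5001. There 11 of the 14 had a negative change, with a median of -0.23 against -0.04 over all genes. An unadjusted p under 0.05 was found for 6 of them, against 13.1% of all genes. Between the AREG groups 13 were negative with a median of -0.20, and 0 were called by limma. There 2 had an unadjusted p under 0.05, against 10.3% of all genes. Of 8 cardiomyocyte markers 0 were called with AREG by limma (2 at day 4 and 0 at day 8 at an unadjusted p under 0.05). The atrial genes Nppa and Myl7 read at most 103 and 114, and the sum of the 8 was 917 to 1092 over all arrays. Myh6 and Nkx2-5, the 2 of the 8 whose mean lay above the median gene, read at most 238 and 292. With AREG at day 4, 5 of the 8 had a positive change. Myh6 had the smallest p there, with a log2 change of 0.54 ± 0.15 (adjusted p = 0.0736, limma). Between day 4 and day 8, Sln, the sarcolipin of atrial and skeletal muscle, rose by 0.67 ± 0.15 with PBS (adjusted p = 0.0289) and by 0.87 ± 0.15 with AREG (adjusted p = 0.0100).

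Markers of adult fibres checked the tissue. Of 10 mature fast fibre markers 0 were called by limma in any comparison (0 to 2 at an unadjusted p under 0.05), and at day 4 with AREG all 10 had a positive change with a median of 0.15. Of 10 slow fibre markers 8 had a positive change with AREG at day 4, with a median of 0.23 against 0.04 over all genes, and 6 had an unadjusted p under 0.05. Casq2 fell there (-0.92 ± 0.23, adjusted p = 0.0463), while Myl3 (1.05 ± 0.29, adjusted p = 0.0599) and Myl2 (0.99 ± 0.28, adjusted p = 0.0711), the light chains of slow and cardiac myosin, had positive values. The slow troponins Tnnt1, Tnni1 and Tnnc1, with -0.13, -0.47 and -0.04 in that comparison, did not pass. Foxp3 read 89.7 to 107.5 on all 12 arrays, a level at which whole muscle does not check the genotype labels.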

How the data were processed

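The deposited values are intensities on a linear scale (4.65 to 21512.5), 1 per transcript cluster and array, made by the authors with RMA in Affymetrix Power Tools, per the submitters' processing notes. Software versions and genome build: not given in the sources used here. RMA can compress differences at both ends of its range; precision is limited by the number of arrays. Array medians lay between 134 and 143. The deposited intensities were converted to log2 without a pseudocount or filter. Of 24922 clusters 21425 carry 1 gene symbol, and 921 genes with several clusters were represented by the one with the highest mean; each of the 10 genes has 1.

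All 19752 genes entered limma 3.58.1 (R 4.3.3; 4 group means, 8 residual and 7.1 prior degrees of freedom) with two-sided tests, Benjamini-Hochberg adjustment over all of them and a threshold of 0.05. Fold changes, SE and 95% intervals come from this model. The members and the gene lists were chosen with earlier results of these data known. Named were all 10 genes, the 3 genes most like each by Pearson r, and up to 4 genes of the smallest p per list. The method was also run on simulated data with independent noise for each gene and array. Such data lack the correlated deviations of the day 4 arrays given below, so they do not check the calls reported here.

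At day 4, deviations from group means of AREG and PBS arrays with the same number correlated at 0.558, 0.201 and 0.511. That was taken as pairing, though the labels do not state it. Between different numbers the day 4 values ran from -0.486 to 0.27. The 0.27, of AREG replicate 2 with PBS replicate 3, is above the 0.201 of the matched replicate 2. Deviations within a group cancel, so these values are not independent. At day 8 the values for the same number were -0.198, 0.123 and -0.003. Blocked AREG effects come from a fit that adds the replicate number within each day, day 8 included. Blocked comparisons of day 8 with day 4 come from a fit that adds the replicate number across days. The other alternatives were a pseudocount of 32, a filter at the median level, repeated quantile normalization, median centring, eBayes with trend and robust options, array weights, the 2 compared groups alone, the mean of a gene's clusters, and leaving out each array.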

Additional observations from a re-analysis of the deposited data

How the results depend on the processing

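Over the 10 genes and 6 comparisons, 60 changes were recomputed under up to 21 alternatives, 1240 values in all. Of these 1155 kept their sign and side of the threshold, 24 lost a call, 16 gained one and 45 changed sign. The changes of sign concern 20 results, none of which was called with or without the alternative, and the largest reversed value was 0.136 in size. The calls of Acta2 and Tnnt2 between the PBS groups and of Acta2 between the AREG groups held in every alternative run.

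With a pseudocount of 32, 1 of the 10 genes, Acta2, was called at day 4, beside 1.81% of all genes. For the mean effect the pseudocount ended the call of Tnnt2 (adjusted p = 0.0727, limma) and gave one to Tnni2 (0.0417). For that effect 1 was called after repeated quantile normalization (3.41% of all genes), median centring (2.42%), or eBayes with trend and robust options (3.1%). Array weights called 5 of the 10 at day 4 (26.9% of all genes), 2 at day 8 (6.03%) and 6 for both days averaged (24.8%). They also called 1 for the difference of the effects (11.3%) and 3 between the AREG groups (33.8%). The replicate block, which takes replicate numbers as pairs, gave counts of 2 (day 4), 0 (day 8), 2 (mean effect) and 0 (difference). Between the PBS groups it gave 2, and between the AREG groups 2, Acta2 and Tnnt2. It changed no other call of the 10. The shares of all genes, in the same order, were 4.63%, 0%, 5.59%, 0%, 2.46% and 0.714%. Replicate numbers were not checked as pairs across days, so the block's call of Tnnt2 between the AREG groups (adjusted p = 0.0334) has no pairing behind it. With 1 array left out the count was 0 to 2 at day 4, 0 to 3 for the mean effect and 1 to 2 between the AREG groups. Over all genes, leaving out 1 array gave 9 to 1336 called at day 4, 0 to 1 at day 8, 34 to 1488 for the mean effect, 209 to 719 between the PBS groups and 79 to 458 between the AREG groups. The other alternatives gave 358 to 5305, 0 to 1192, 478 to 4902, 310 to 1649 and 86 to 6676, and 0 to 2232 for the difference, each upper end with array weights. Of the genes called at day 4, 27.2% were higher, and 38.9% after repeated quantile normalization; for the mean effect these were 12.2% and 28.9%. With array weights they were 52.5% and 46.9%. With 1 array left out they ran from 7.9% (without day 4 PBS replicate 1) to 48.3% (without day 4 PBS replicate 3) at day 4, and from 4.4% to 23.7% for the mean effect.

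After repeated quantile normalization the log2 change of Tnnt3 was -0.0057 at day 4 and -0.012 between the PBS groups, and that of Tnnc2 0.043 between the AREG groups. After median centring Acta1 was at 0.026 at day 8 and 0.027 for the mean effect, Tnnt1 at 0.00050 for the mean effect and Tnnc2 at 0.023 between the AREG groups. With array weights Tnnc1 was at -0.011 at day 8 and -0.047 for the mean effect, and Tnnt1 at 0.020 for the mean effect.

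With 1 array left out, these changes crossed 0. At day 4 Acta1 ran from -0.015 to 0.046, Tnnt1 from -0.30 to 0.046, Tnnt3 from -0.016 to 0.14 and Tnnc1 from -0.12 to 0.043. At day 8 Tnnt2 ran from -0.48 to 7.8e-05, Tnnc1 from -0.042 to 0.24 and Tnnc2 from -0.016 to 0.093. For the mean effect Acta1 ran from -0.019 to 0.011, Tnnt1 from -0.12 to 0.055 and Tnnc1 from -0.041 to 0.099, and for the difference Tnnt3 from -0.0067 to 0.15 and Tnnc1 from -0.0031 to 0.28. Between the PBS groups Acta1 ran from -0.054 to 0.0076, Tnnt3 from -0.035 to 0.075 and Tnnc1 from -0.14 to 0.14, and between the AREG groups Tnnt1 from -0.043 to 0.31, Tnnt3 from -0.0014 to 0.15 and Tnni1 from -0.026 to 0.12. The cause was not tested for any of these. With 3 arrays per group and no background flag in the deposited values, signal over background was not assessed, and an uncalled change does not show that levels were alike.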
